A study of Mus musculus with 12 samples.

Results

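Among 36435 sorted cells that passed a depth and a mitochondrial filter, 370 held at least 1 unique molecule (UMI) of 3 or more of 6 B cell genes, Ebf1, Pax5, Ms4a1, Bank1, Vpreb3 and Fcer2a. These 370 cells, called members here, made up 1.02% of the kept cells (exact Clopper-Pearson 95% interval 0.915 to 1.12%). A cell was kept when it had at least 500 UMIs outside genes whose symbols start with Igh, Igk or Igl, and when under 10% of its UMIs were mitochondrial. Members were compared with 5322 kept cells, the comparators, which held no UMI of the 6 genes and in which 1 light-chain V gene supplied at least 50% of the light-chain V UMIs. The rule was read from the same UMIs that the results describe, so the 6 genes are given as a description.

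The cells were antibody-secreting cells (ASC) sorted from 3 organs, bone marrow, spleen and thymus, of Prdm1-eYFP mice of both sexes on a C57BL/6 background. Every mouse was 3 months old, each sort pooled 3 mice, and the gate was B220+/- CD138HI IgD- CD90.2- Prdm1-eYFP+. The Prdm1-eYFP allele is a reporter of the gene for Blimp-1, and all 6 combinations of sex and organ carried it. Each combination gave 1 gene expression library and 1 VDJ library made with the 10x 5' chemistry, so no combination was replicated and p-values measure only the spread between the 4 pools tested. The labels do not say whether organs of 1 sex came from the same mice.

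Ebf1 and Pax5 are transcription factors that set and hold B cell identity, and Pax5 holds back the genes of the secreting state. When a B cell becomes an ASC, Blimp-1, encoded by Prdm1, shuts down Pax5 and much of the B cell surface and antigen-presentation programme, while Xbp1 drives the secretory pathway. Ms4a1 encodes CD20, Bank1 an adaptor of B cell receptor signalling, Vpreb3 a protein bound to immunoglobulin chains in early B cells, and Fcer2a the low-affinity IgE receptor CD23.

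Some properties of the libraries bear on all values below. Barcodes outside the deposited filtered lists that held 1 to 100 UMIs, called low-count barcodes here, gave a profile in which the 6 genes made up 787 to 936 CPM (UMIs per 1000000 UMIs outside immunoglobulin genes) in the bone marrow and spleen libraries. That profile is no measure of the free RNA in a cell. It held RNA of the other sex: Xist, which female cells express, was at 223 and 194 CPM in the low-count barcodes of male bone marrow and male spleen, and the Y-linked Eif2s3y at 32.9 and 25.9 CPM in those of female bone marrow and female spleen. Male members had no Xist UMI, and 0.385 and 0.509% of male bone marrow and spleen comparators had one, at 0.438 and 0.91% of the low-count level. S100a9, of neutrophils, was at 210 and 226 CPM in the low-count barcodes of female and male spleen and at 0 in members there, and in female and male bone marrow members it was at 5.58 and 8.70% of its low-count level, with comparators at 8.80 and 191%. Low-count values are given below as a description, and the free RNA of a library's own cells was not measured. Pairs of libraries shared 24 to 247 cell barcodes, and 352 of the 370 members had a barcode found in no other library. Doublets were not removed here. The VDJ library with the same sex label as a gene expression library shared only 17 to 63 barcodes with it in bone marrow and spleen, whereas the library of the same organ and the opposite sex label shared 893 to 2740, of which 93.4 to 96.9% had the same light-chain V gene in both. The sex-linked genes in the cells of the expression libraries went with their labels, as given with the sex comparison.

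Members were found in all 6 expression libraries. There were 43 of 4914 kept cells in female bone marrow (0.875%), 40 of 3639 in male bone marrow (1.10%), 200 of 15469 in female spleen (1.29%) and 84 of 11219 in male spleen (0.749%). Thymus gave 2 of 467 (0.428%) in females and 1 of 727 (0.138%) in males, too few for any comparison. The median member had 2602 and 3412 UMIs outside immunoglobulin genes in female and male bone marrow, and 7370.5 and 4301.5 in female and male spleen. The medians of the comparators were 2328, 3096, 3192.5 and 2912 in the same order, so members were deeper in each of these 4 libraries, most of all in female spleen. When every kept cell was thinned to 500 UMIs, 21 cells met the rule, 5 or 6 in each bone marrow and spleen library.

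The number of cells fell steeply with the number of genes held: 26606 kept cells held none of the 6 genes, 7925 held 1, 1534 held 2, 302 held 3, 52 held 4, 12 held 5 and 4 held all 6. Just outside the rule, cells with 2 of the genes had a median of 6.39 rule-gene UMIs per 10000 UMIs, and just inside it, cells with 3 had 7.96. Cells with 4 or more had 25.4. The leading light-chain V gene supplied a median of 53.9% of light-chain V UMIs in cells with 2 genes, 65.8% in cells with 3 and 21.6% in cells with 4 or more. The libraries differed in this: cells with 2, 3 and 4 or more genes had medians of 89.5, 20.7 and 17.0% in female bone marrow, 88.3, 57.9 and 17.1% in male bone marrow, 52.4, 75.7 and 23.0% in female spleen and 37.7, 55.0 and 22.1% in male spleen.

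Most members held UMIs of ASC genes. Of Prdm1, Sdc1 (which encodes CD138), Tnfrsf17 (the receptor BCMA) and Slamf7, 299 members (80.8%) had a UMI of at least 2, and 71 (19.2%) had a UMI of 0 or 1. The 71 cells numbered 24 of 43 members in female bone marrow (55.8%), 15 of 40 in male bone marrow (37.5%), 16 of 200 in female spleen (8%) and 16 of 84 in male spleen (19.0%). Among comparators the share with 0 or 1 of these genes was 15.9, 10.2, 8.72 and 11.3% in the same order. Thinned to 1000 UMIs per cell, 48.8, 32.4, 16.5 and 19.3% of members held none of the 4 genes, against 10.3, 6.67, 10.1 and 10.9% of comparators (cells with fewer UMIs left out), a higher share in members of each library. Over all members Prdm1 was above its level in low-count barcodes in each library, at 518, 714, 753 and 716 CPM against 342, 427, 492 and 445. Slamf7 was below it in each, at 388, 691, 775 and 746 CPM against 713, 851, 849 and 803, as was Tnfrsf17, at 168, 187, 201 and 179 CPM against 180, 227, 216 and 221. Sdc1 stood at 209, 418, 218 and 237 CPM against 175, 235, 213 and 237. Deeper cells pass the count of ASC genes more easily, and no class of cells without these 4 genes was at hand for a background share of their own. The 370 cells are therefore called by the rule, not by the label of B cells, and are described below as a whole and in these 2 subsets.

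The 2 subsets differed in more than the 4 genes that split them. The 71 cells with 0 or 1 ASC genes had a median depth of 2068 UMIs, a median of 17.1% of their UMIs in immunoglobulin genes and a leading light-chain V gene share of 15.5%. The 299 with 2 to 4 ASC genes had 7377 UMIs, 47.7% immunoglobulin and 71.9% for the leading light-chain V gene. Rule-gene UMIs numbered a median of 8 per cell in the first subset and 4 in the second, or 46.0 and 6.98 per 10000 UMIs, and 30 of the 71 but 38 of the 299 held 4 or more rule genes. Members were chosen on these genes, so the values are a description, and the level per 10000 UMIs is high by construction in shallower cells. The leading gene stayed under 50% of light-chain V UMIs in 66 of the 71 and in 96 of the 299.

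**Figure D1:**
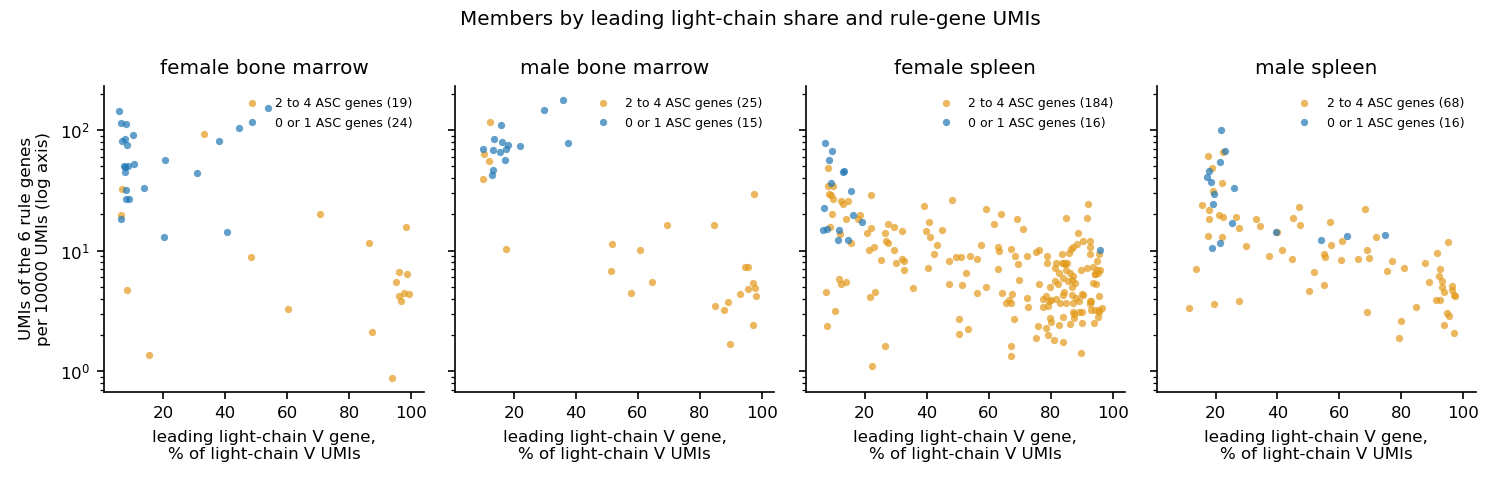
Each point is 1 member, placed by the share of its light-chain V UMIs from the leading V gene (x axis, %) and by its rule-gene UMIs per 10000 UMIs (y axis, log scale), in the 4 bone marrow and spleen libraries. Members with 0 or 1 of the 4 ASC genes (blue) lie mostly at low leading share and high rule-gene level, which is high by construction in shallow cells. Over all 6 libraries, thymus counted but not plotted, 96 of the 299 with 2 to 4 (orange) were under 50% as well.

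Of the rule genes, Ebf1 and Bank1 were above their low-count levels in members of all 4 libraries. Ebf1 stood at 684 CPM in female bone marrow members, 662 in male bone marrow, 159 in female spleen and 310 in male spleen, against 163, 159, 135 and 142 CPM in low-count barcodes. Pax5 stood at 122, 101, 13.7 and 34.6 CPM in members and 47.8, 39.5, 33.1 and 39.9 in low-count barcodes, above it in both bone marrow libraries and below it in both spleen libraries. Ms4a1 was below its low-count level in members of all 4 libraries, at 357, 378, 243 and 348 CPM against 528, 457, 426 and 433. For a cell type that should have little of these genes, the comparators cannot serve, since the rule set them to 0.

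Vpreb3 was higher in bone marrow than in spleen, with 357 CPM in female and 631 CPM in male bone marrow members and 156 and 81.5 CPM in those of spleen. Low-count barcodes held 102, 82.4, 104 and 82.3 CPM of it. Bank1 ranged from 83.6 to 218 CPM with low-count barcodes at 70.8 to 84.4, and Fcer2a from 3.80 to 27.3 CPM with low-count barcodes at 13.3 to 23.9. Fcer2a was the rarest gene of the rule, with a UMI in 1, 3, 9 and 10 members of female bone marrow, male bone marrow, female spleen and male spleen. Ebf1 was present in 38, 31, 163 and 72 members, with up to 29 UMIs in 1 cell.

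The rule asks for UMIs of at least 3 of these genes, so their level in CPM is high by construction in shallow cells, and the 71 members with 0 or 1 ASC genes were the shallower subset. As a description, Ebf1 stood in them at 2509, 2965, 1031 and 1122 CPM and Ms4a1 at 1403, 1680, 1098 and 1170 CPM. Vpreb3 was at 1423 and 2273 CPM in bone marrow and at 183 and 334 CPM in spleen in this subset. The 6 genes together reached 5967, 8236, 2927 and 3367 CPM there. In the 299 members with 2 to 4 ASC genes they reached 570, 1122, 593 and 797 CPM, beside 936, 842, 791 and 787 CPM in low-count barcodes. Only male bone marrow and, by a small margin, male spleen were above low-count barcodes in that larger subset.

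**Figure D2:**
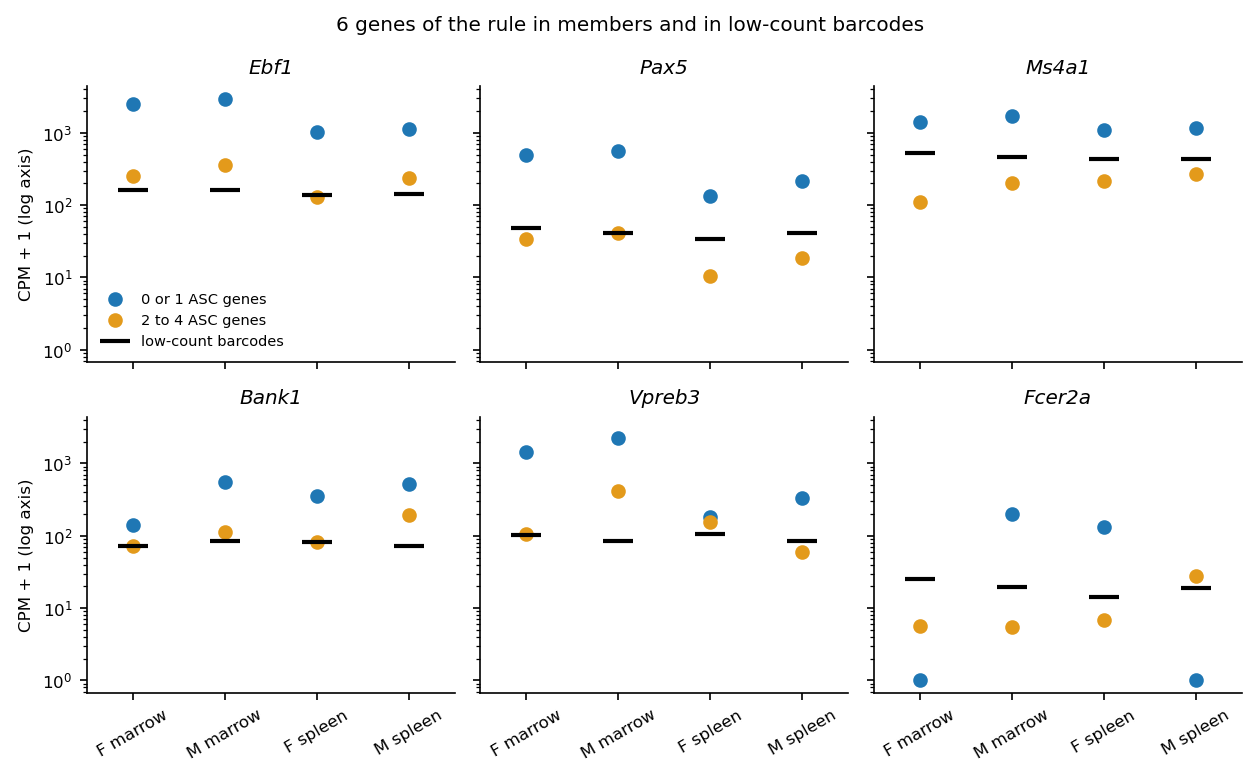
Level of each of the 6 rule genes as CPM + 1 (log axis) in the bone marrow and spleen libraries (F, female; M, male), for members with 0 or 1 ASC genes (blue), members with 2 to 4 (orange) and low-count barcodes (black bars). Ebf1 in the blue points is at 1031 to 2965 CPM against 135 to 163 CPM in low-count barcodes, while the orange points are nearer the bars for most genes, with Vpreb3 in male bone marrow at 411 against 82.4 CPM and Pax5 in female spleen at 9.43 against 33.1 CPM among the exceptions.

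The antibody genes of the members add a readout that the rule did not use. Among cells with at least 5 UMIs of heavy-chain constant genes, Ighm led in 40 of 43 female bone marrow members (93.0%, 95% interval 80.9 to 98.5%), 39 of 40 in male bone marrow (97.5%), 162 of 200 in female spleen (81.0%) and 81 of 84 in male spleen (96.4%). In comparators Ighm led in 82.1, 93.2, 72.4 and 87.8%, a lower share in each of the 4 libraries. IgG genes led in 35 of the 200 female spleen members (17.5%) and in 19.4% of female spleen comparators. Ighm led in all 71 members with 0 or 1 ASC genes. In most of those cells no single light-chain V gene prevailed, as given above, and whether their Ighm UMIs were their own was not tested. Ighd, the constant gene of IgD, gave 1, 3, 8 and 5 UMIs over all members of the 4 libraries, in a sort that took IgD- cells. These shares carry no test, since comparators were chosen on their light chains, and intervals cover counting error only.

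VDJ contigs were found on a smaller share of the members with 0 or 1 ASC genes than of the others. By label, 0 of 370 members had a contig in the filtered VDJ table, which allows a share of up to 0.992% by the exact interval. Joined to the VDJ library that shared most barcodes, a choice made after the mismatch was seen, 143 of 370 members (38.6%) had a contig with a heavy chain. The shares were 12 of 43 (27.9%) in female bone marrow, 15 of 40 (37.5%) in male bone marrow, 66 of 200 (33.0%) in female spleen and 48 of 84 (57.1%) in male spleen. They were 4 of 71 (5.63%) in members with 0 or 1 ASC genes and 139 of 299 (46.5%) in members with 2 to 4. Comparators had contigs in 2958 of 5322 cells (55.6%), pooled over libraries that differed widely. Heavy-chain contigs were on 562 of 855 comparators in female bone marrow and 702 of 1039 in male bone marrow. In female spleen they were on 483 of 1916 and in male spleen on 882 of 1178. The comparator share was thus below that of members in female spleen and above it in the other libraries named here. With all productive contigs in place of the filtered table the shares were 74.9% of all members, 16 of 71 (22.5%) and 261 of 299 (87.3%) in the 2 subsets and 96.2% of comparators. In the filtered table, heavy-chain contigs were IGHM in 102 members, IGHG in 28, IGHA in 8 and IGHD in 1.

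The heavy-chain CDR3 sequences printed here are those of the 4 members with 0 or 1 ASC genes that had a contig in the filtered table, the subset in which contigs were rarest. Capitals mark the first and the last codon of each CDR3, read 5′ to 3′ from the deposited contigs.
male bone marrow cell 7: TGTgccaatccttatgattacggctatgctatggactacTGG
male spleen cell 26: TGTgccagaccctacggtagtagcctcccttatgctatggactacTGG
male spleen cell 32: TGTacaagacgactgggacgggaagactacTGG
male spleen cell 37: TGTgcaagatggggggactttgactacTGG
Male bone marrow cell 7 held all 6 rule genes and none of the 4 ASC genes, and its contig joined IGHV2-5 to IGHJ4 and IGHD with 29 UMIs. The 3 male spleen cells had 3 rule genes and 1 ASC gene each, and their contigs were IGHM, with 183, 429 and 216 UMIs. The sequence of cell 32 was also found in 1 comparator, and the other 3 in none.

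Some members with ASC genes had the same heavy chain as comparators, and 3 of these are shown because the same bases were read in cells that lack all 6 rule genes. Of the 143 members with a heavy chain, 33 had a CDR3 identical in bases to that of a comparator. There were 134 distinct sequences, of 21 to 60 bases with a median of 39.
IGHV9-3 in 4 male spleen members: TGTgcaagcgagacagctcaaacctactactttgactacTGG
IGHV3-6 in 5 female spleen members: TGTgcaagttatagtaacgaggactacTGG
IGHV8-8 in 2 male bone marrow members: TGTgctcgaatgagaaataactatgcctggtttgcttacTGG
The IGHV9-3 sequence was carried by 266 comparators, the IGHV3-6 sequence by 11 and the IGHV8-8 sequence by 25. All 11 of these members had 3 or 4 of the 4 ASC genes. The 5 members with the IGHV3-6 sequence were IGHM in 2 cells, IGHG2B in 2 and IGHA in 1.

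Across the transcriptome, members and comparators were compared with UMI sums per library and class, with the library as a block. The 6 rule genes and immunoglobulin genes were left out. edgeR's quasi-likelihood test with Benjamini-Hochberg adjustment called 1226 of 9378 genes (13.1%), 822 higher in members (8.77%) and 404 lower (4.31%), at an adjusted p under 0.05. DESeq2 called 627 higher and 179 lower, and edgeR with upper-quartile scaling 782 higher and 447 lower. Without the female bone marrow library 729 genes were called and without the male spleen library 600. Because the classes were cut from the same UMIs, these differences describe which genes go with the rule and are no independent evidence. The CPM ranges over the 4 libraries did not overlap, with members higher, for 4.73% of the genes tested and, with members lower, for 5.11%.

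Of the genes of B cell identity and receptor signalling, 18 of 35 tested were higher in members and 1 was lower (36 listed). Over all genes tested, 8.77% were higher and 4.31% lower. Their median log2 fold change in the B cell list was 0.53, beside -0.02 over all genes. In that list 14 were higher with no overlap between the classes, where 4.73% of all genes tested were. Spib, a transcription factor of B cells, stood at 103, 137, 14.2 and 30.6 CPM in members of female bone marrow, male bone marrow, female spleen and male spleen, and at 0.705, 0, 0 and 0.253 CPM in comparators (log2 fold change 8.18 ± 0.49 SE). Cd72, a receptor that restrains B cell signalling, stood at 137, 137, 16.0 and 32.6 CPM in members and at no more than 1.28 CPM in comparators (6.14 ± 0.50). For both the classes did not overlap, and both bone marrow libraries were several times the spleen ones.

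Low-count barcodes held the same genes. Spib made up 55.2, 47.6, 45.2 and 39.9 CPM of low-count barcodes, below the members in bone marrow and above them in spleen. Cd72 made up 43.7, 34.8, 34.3 and 44.2 CPM, with the same order. Cd22, an inhibitory receptor, was below its low-count level in members of all 4 libraries, at 64.7, 19.5, 10.8 and 42.8 CPM against 75, 67.7, 56.0 and 46.6. In the 71 members with 0 or 1 ASC genes, Spib was at 497, 664, 200 and 264 CPM and Cd72 at 636, 698, 267 and 240 CPM, above low-count barcodes in every library. Cd22 was at 166 and 143 CPM in the female and male spleen cells of that subset, also above its low-count level.

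Other genes were named for the size of their difference alone. Id3, an inhibitor of E proteins, differed by 5.88 ± 0.45, Fam129c, a gene of B cells, by 4.96 ± 0.65, and Bcl11a, a transcription factor needed for B cell formation, by 4.05 ± 0.45. Cd22 differed by 3.98 ± 0.38, Ncf1, a subunit of the phagocyte oxidase, by 3.24 ± 0.43, and Marcksl1 by 3.16 ± 0.55. Btg1, which restrains proliferation, stood at 206, 234, 35.9 and 71.4 CPM against 20.8, 8.80, 10.3 and 10.9 in comparators (3.15 ± 0.30). Bin1, Pkib and Dek rose by 3.00, 2.90 and 2.80. Fam129c and Pkib are the ones whose low-count level, 3.03 to 4.12 CPM and 4.12 to 7.23 CPM, was low in every library.

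The class II antigen-presentation genes rose in part. Of 10 tested, 6 were higher and none lower (median 0.64), where 8.77% of all genes were higher, and Cd74, the invariant chain, was not called. H2-DMb2, a chain of the peptide exchanger, stood at 53.3, 42.9, 65.0 and 67.3 CPM in members and at 7.40, 6.36, 13.2 and 8.33 in comparators (2.72 ± 0.20). H2-Oa, a chain of its inhibitor, differed by 3.97 ± 0.56, and Ciita, the master regulator of these genes, by 3.58 ± 0.59. H2-DMb2, H2-Oa and Ciita all lay below their low-count levels in every library. Ciita, for example, was at 7.62 CPM in female bone marrow members and at 33.8 CPM in low-count barcodes there.

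**Figure D3:**
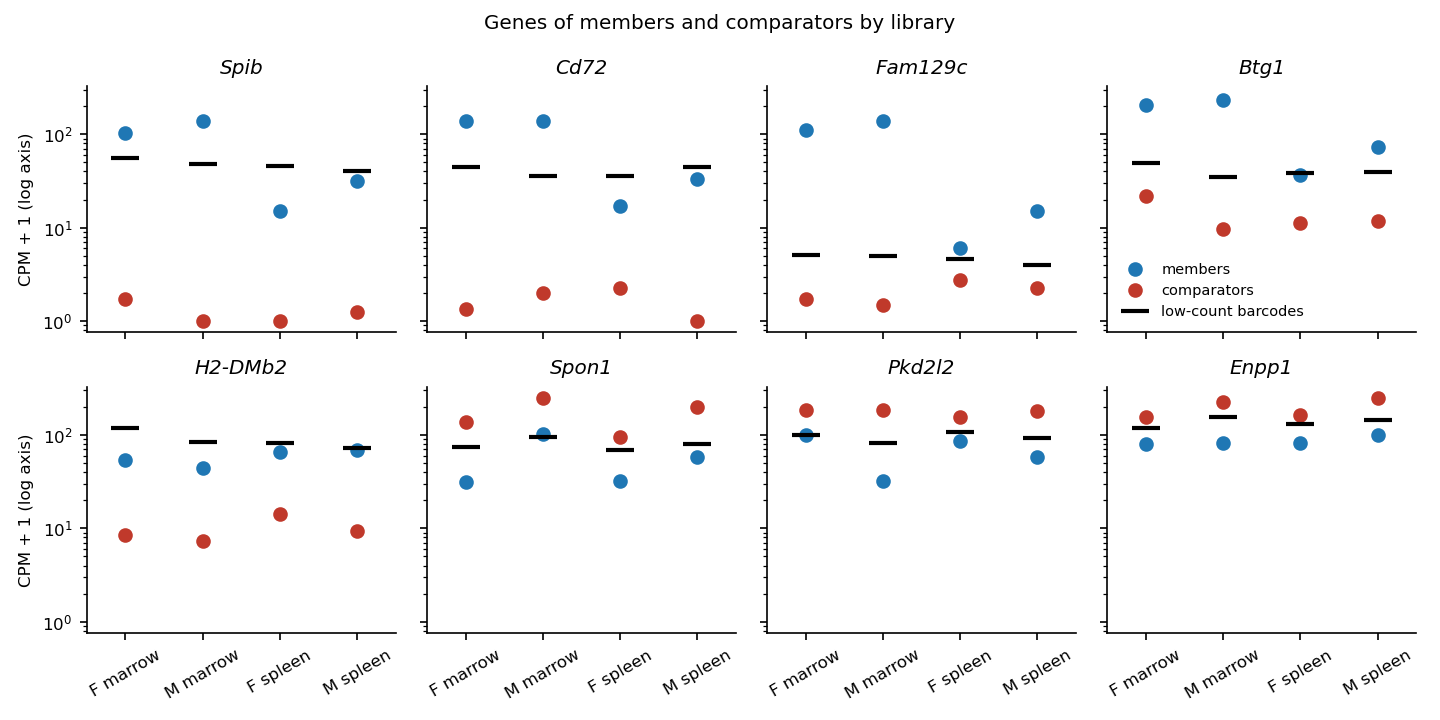
CPM + 1 (log axis) of 8 genes named by size of change, in members (blue), comparators (red) and low-count barcodes (black bars) of the bone marrow and spleen libraries (F, female; M, male). Spib, Cd72, Fam129c, Btg1 and H2-DMb2 are higher in members in all 4 libraries, and Spon1, Pkd2l2 and Enpp1 lower.

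Of the ASC genes, 9 of 18 tested were lower in members and 1 was higher, with a median of -0.35, where 4.31% of all genes were lower and 8.77% higher. Txndc5, a disulfide isomerase of secretory cells, stood at 2345, 3466, 3006 and 3832 CPM in members and at 5309, 7341, 4846 and 6342 in comparators (-0.82 ± 0.12), without overlap. Trp53inp1 (-1.05 ± 0.14) and Sdc1 (-0.57 ± 0.12) were lower as well. Prdm1 was at 518, 714, 753 and 716 CPM in members and 875, 1089, 850 and 818 in comparators and did not pass (-0.31 ± 0.12). Xbp1 (-0.21 ± 0.11), Jchain (0.11 ± 0.15) and Mzb1 (0.21 ± 0.12) did not pass either. Ly6c2, a surface protein found on many ASC, was the 1 that was higher (1.02 ± 0.25). Its direction turned with at least 4 rule genes (-0.64) and in the 71 members with 0 or 1 ASC genes (-1.74), and it did not pass without male bone marrow (0.64), without male spleen (0.76) or with DESeq2 (1.02). Of 14 genes of folding and secretion in the endoplasmic reticulum, 4 were lower and 1 higher (median -0.09), against 4.31 and 8.77% of all genes, so the higher count was near the background.

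Outside the lists, the genes lower in members by the largest amounts included Fam129a at 11.4, 3.90, 11.4 and 6.12 CPM against 30.7, 43.5, 22.3 and 60.6 in comparators (-1.64 ± 0.32). Spon1, a matrix protein, stood at 30.5, 101, 30.8 and 57.1 CPM against 136, 245, 94.1 and 200 (-1.54 ± 0.15). It was lower within each library, although the ranges overlapped across libraries. Enpp1, a surface phosphodiesterase, stood at 80.0, 82.0, 80.3 and 97.9 CPM against 154, 223, 163 and 249 (-1.06 ± 0.14), and Pkd2l2, a channel protein, fell by 1.14 ± 0.18. Adgrl2 (-1.27 ± 0.18), Xpot, which exports tRNA (-1.21 ± 0.20), Thbd, which encodes thrombomodulin (-1.17 ± 0.21), and Pdcd1lg2, which encodes PD-L2 (-1.11 ± 0.27), were also lower.

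The remaining genes of the 15 with the largest fall were Trerf1, Parm1, Kif1b, Cdc73, Eml6, Fut4 and Cped1, at -1.34 to -1.10. Each named gene was lower in members in all 4 libraries, as the rule for naming asked. The 15 named genes higher in members ranged from 2.72 to 8.18. The naming rule leaves out genes lower in some libraries alone, such as S100a9, given with the neutrophil list.

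Genes of other B cell stages were mostly too sparse to test. Of the follicular list, 3 of 4 tested genes were higher, among them S1pr1 (a receptor that guides exit from tissues, 2.36 ± 0.43) and Klf2 (a transcription factor of resting lymphocytes, 2.07 ± 0.31). Of the marginal zone list, 2 of 4 were higher. Of the pro-B and pre-B list, 2 of 11 could be tested, with Myb higher (1.85 ± 0.50) and Cd93 lower (-0.62 ± 0.14). The germinal centre list had 1 of 5 higher, the B-1 list 1 of 4 lower and the age-associated list 1 of 3 higher, which was Zeb2 (1.17 ± 0.31). With 3 to 5 genes tested, 1 called gene in a list says little beside the 8.77% of all genes that were higher and the 4.31% lower.

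Cycling genes were higher in members, 13 of 15 with none lower (median 1.02), where 8.77% of all genes were higher and 4.31% lower. Mcm5, a subunit of the replicative helicase, stood at 60.9, 46.8, 37.0 and 36.7 CPM against 9.87, 12.0, 14.2 and 14.6 in comparators (1.77 ± 0.23). Pcna (1.16 ± 0.16) and Rrm2 (1.34 ± 0.17) were higher and Mki67, a marker of dividing cells, by less (0.40 ± 0.11). Mki67 was at -0.086 with at least 4 rule genes. In members with 0 or 1 ASC genes the direction turned for Mki67 (-1.34), which passed as lower, and for Rrm2 (-0.34), which did not pass. No cycling gene was called higher in that subset, as given below. With every cell thinned to 1000 UMIs, 8 of the 15 cycling genes could still be tested, and 1 was higher, with a median of 0.60 (over all 6341 genes of that fit 6.86% were called, 3.94% higher and 2.92% lower), and 16 of 32 B cell genes were. That fit held fewer UMIs, and whether depth or the smaller counts ended the calls was not tested.

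Of the interferon response genes, 1 of 15 was higher (Ifi27l2a, 1.30 ± 0.14) and 2 were lower, against 8.77 and 4.31% of all genes tested, so the higher count was near the background. Immediate early genes had 3 of 13 lower, with Fos at -0.97 ± 0.17. The 3 neutrophil genes that could be tested were all lower in members by edgeR (S100a9 -3.64 ± 0.42, S100a8 -4.15 ± 0.54 and Ngp -2.93 ± 0.40). By DESeq2 none passed, and S100a8 (0.41) and Ngp (0.45) had the opposite sign. The difference was largest in male bone marrow, where the 7 genes of the list summed to 3007 CPM in comparators and 113 CPM in members. In female bone marrow they summed to 123 and 79.8 CPM, and all 7 were at 0 in members of both spleen libraries. Without either bone marrow library these genes were too low to test.

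Other cell types left few counts in members. The T cell list summed to 7.79 to 59.1 CPM over the 4 libraries, the macrophage list to 11.4 to 35.9, the erythroid list to 6.26 to 15.2 and the plasmacytoid dendritic list to 34.6 to 152. The highest T cell value was in male spleen, with 4.29 CPM in comparators there, and the highest plasmacytoid dendritic value in female bone marrow, with 38.8 CPM in comparators. The NK list was at 0 in 3 of the 4 libraries, as was the platelet list. Conventional dendritic genes summed to at most 5.13 CPM with 3 of 4 genes at 0, and the thymic epithelium list, of which 2 of 3 genes were at 0, to 76.0 to 154 CPM. None of these lists had a called gene.

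The 71 members with 0 or 1 ASC genes lay further from the same comparators, which the 2 subset comparisons share, in the B cell, class II, ASC and secretion lists. Here 331 of 8542 genes were higher (3.87%) and 815 lower (9.54%), and the median over all genes was -0.37. Of 36 B cell genes, 29 were higher and 1 lower (median 1.69), and 7 of 10 class II genes were higher (median 1.35). All 14 ASC genes outside the 4 that made the split were lower, at -3.18 to -1.66 with a median of -2.64, and all 14 secretion genes were lower with a median of -2.29. These cells, unlike the comparators, were picked for few ASC genes, so the lower ASC genes are given as a description. Xbp1 stood at 676, 432, 934 and 958 CPM in these cells against 3027, 3487, 3786 and 3592 in comparators. Jchain, which joins IgM and IgA subunits, was at 12126, 11759, 26019 and 18066 CPM against 76495, 82675, 87720 and 52978, and against 62355, 67142, 66624 and 57200 in low-count barcodes. Klf2 was at 557, 997, 684 and 264 CPM against 46.5, 11.5, 34.9 and 10.6, and no cycling gene was higher (2 of 15 lower).

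The 299 members with 2 to 4 ASC genes, without those of thymus in the fit, were closer to the comparators. In them 772 of 9523 genes were higher (8.11%) and 348 lower (3.65%). Of the B cell genes, 13 of 35 were higher and 2 lower (median 0.16), of the ASC genes 2 of 18 were higher and 4 lower (median -0.21), and of the secretion genes 3 of 14 were higher and 1 lower (median 0.05). The cycling genes were higher in 13 of 15 there. The difference between the subsets was not tested, as ASC genes made the split.

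**Figure D4:**
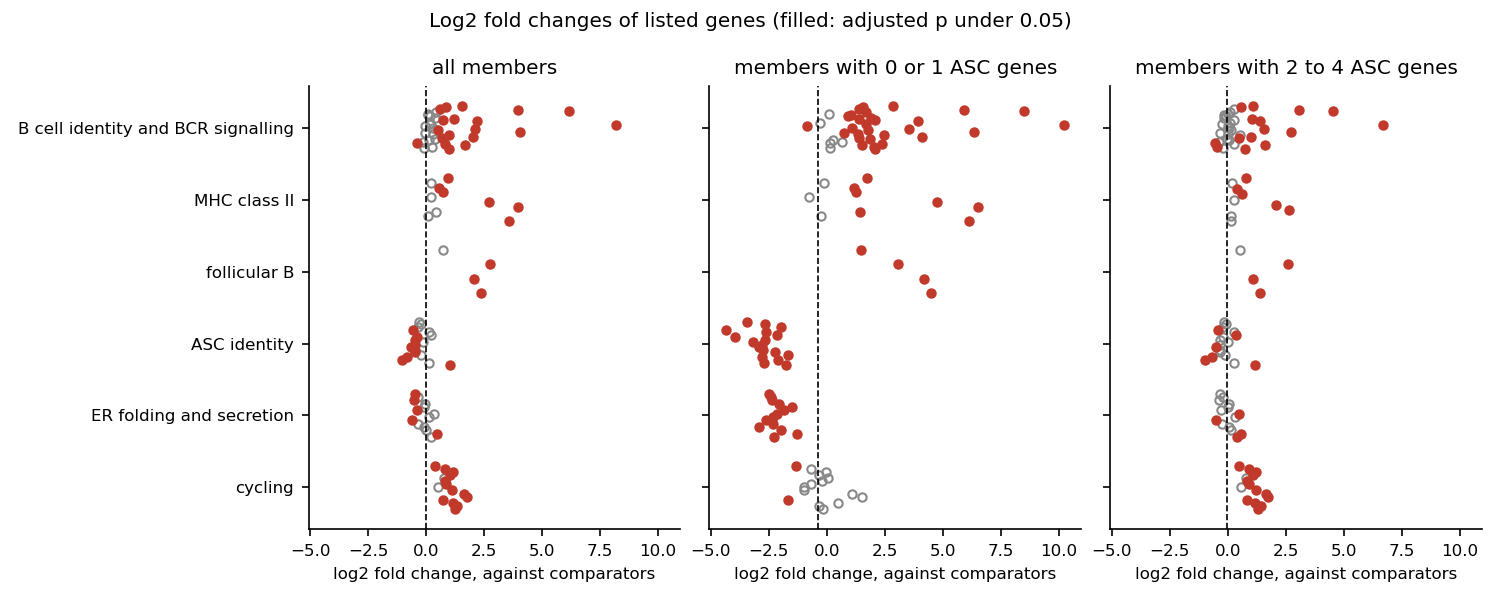
Log2 fold change against comparators (x axis) of each tested gene in 6 lists (rows), for all members and for the subsets with 0 or 1 and with 2 to 4 ASC genes; filled points had an adjusted p under 0.05 and the dashed line is the median of all genes tested. B cell genes reach the right in all 3 panels, and secretion genes shift left as a group in the middle one, with a median of -2.29. ASC genes do too, with a median of -2.64 once the 4 genes that made the split, which are plotted as well, are left out. The cells of the middle panel were picked for few ASC genes.

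Genes that mark B cell stages were counted cell by cell in the 71 members with 0 or 1 ASC genes. Bone marrow held a few cells with genes of early stages. Rag1, of the recombinase, had a UMI in 3 of 24 female and 1 of 15 male bone marrow cells, and in no spleen cell. Dntt, Igll1 and Vpreb1 had a UMI in 1 cell of each bone marrow library and in none of either spleen library, with 7 Igll1 UMIs in the male bone marrow cell. Sox4 was seen in 4 and 1 bone marrow cells and 1 male spleen cell, and Myb in 6 and 3 bone marrow cells and 1 male spleen cell. In spleen, Cr2, the complement receptor CD21, was seen in 5 of 16 female and 4 of 16 male cells with 12 UMIs in each library, and in no bone marrow cell. Comparators had a Cr2 UMI in 0.887% of female and 0.764% of male spleen cells and a Rag1 UMI in 1 of 855 female and 0 of 1039 male bone marrow cells, at the depths given above. The other genes of the marginal zone list did not share one order. Dtx1, a target of Notch signalling, was seen in 3 and 2 spleen cells and 1 female bone marrow cell, and Cd9 in 5 and 3 spleen cells against 1 and 2 in bone marrow. Cd1d1 was seen in 4 and 1 spleen cells against 3 and 4 in bone marrow, Notch2 in 1 and 1 against 2 and 2, and Plxnd1 in 2 female bone marrow cells alone. Myof was seen in 3 and 2 spleen cells and S1pr3 in 1 male spleen cell, and neither in bone marrow. Of the germinal centre list, Rgs13 was seen in 1 cell of each spleen library, Mef2b in 3 and 2 bone marrow cells and 1 male spleen cell, and Bcl6 in 2 female bone marrow cells.

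Between organs, members of spleen and bone marrow were compared in a model with sex as a second term, with 1 residual degree of freedom. Of 5154 genes, 21 passed edgeR's quasi-likelihood test with adjustment (0.407%), 2 higher (0.0388%) and 19 lower (0.369%) in spleen. Of the pro-B and pre-B list, 3 of the 4 tested genes were lower in spleen and none higher. The members with 0 or 1 ASC genes were 55.8 and 37.5% of the members in bone marrow and 8 and 19.0% in spleen, and the part of that mixture in the organ difference was not tested.

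Il7r, the receptor for interleukin 7 on early B cells, stood at 26.7 CPM in female and 74.2 CPM in male bone marrow members and at 0 in both spleen libraries. It was at least 37.5-fold lower in spleen, taking a floor of 3 UMIs over the spleen members (adjusted p = 0.000826). In comparators it was at 0 in 3 libraries and at 0.253 CPM in male spleen, and in low-count barcodes it was at no more than 2.01 CPM. The UMIs came from 3 female and 6 male bone marrow members, of which 1 and 3 had 0 or 1 ASC genes. Members with 2 to 4 ASC genes held 5 of the 7 female and 14 of the 19 male UMIs. Sox4, a transcription factor of progenitors, stood at 41.9 and 42.9 CPM in bone marrow and 0 and 2.04 in spleen members (log2 difference -5.95 ± 1.04, adjusted p = 0.00205), and was under 1 CPM in comparators and in low-count barcodes. Myb, a transcription factor of progenitors, stood at 53.3 and 39 CPM against 4.56 and 6.12 (-3.18 ± 0.66, adjusted p = 0.0168). In female and male bone marrow, members with 2 to 4 ASC genes held 2 of 11 and 10 of 11 Sox4 UMIs and 6 of 14 and 6 of 10 Myb UMIs.

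Fam129c stood at 110 and 137 CPM in bone marrow members and 5.13 and 14.3 CPM in spleen members (-3.87 ± 0.46, adjusted p = 3.57e-05). It was seen in 13 of 43 and 13 of 40 bone marrow members, against 7 of 200 and 5 of 84 in spleen. Akap12, a scaffold of protein kinase A, stood at 53.3 and 70.3 CPM against 2.28 and 2.04 (-4.59 ± 0.68, adjusted p = 0.000572). Nfkbid, a regulator of NF-kappaB, stood at 80.0 and 78.1 CPM against 3.42 and 4.08 (-4.37 ± 0.56, adjusted p = 5.31e-05), and 19 of its 20 UMIs in male bone marrow came from 1 member.

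Fam129c and Nfkbid kept an adjusted p under 0.05 among the 71 members with 0 or 1 ASC genes (-3.48 and -4.31), where 12 of 692 genes were called. Il7r, Sox4, Akap12 and Myb were too low to test there. For every one of these genes the bone marrow and spleen libraries did not overlap. That is a description only, since the genes were picked by the same organ test. The share of all tested genes without such overlap was not counted. S100a9 was also lower in spleen members, at least 28.8-fold, at 26.7, 50.7, 0 and 0 CPM, with low-count barcodes at 477, 582, 210 and 226 CPM.

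Apoe, an apolipoprotein made by macrophages among other cells, was higher in spleen members, at 203 and 184 CPM in female and male spleen against 7.62 and 11.7 in female and male bone marrow (4.30 ± 0.52, adjusted p = 3.57e-05). Comparators stood at 157 and 97.0 CPM in spleen against 38.8 and 17.1 in bone marrow, and low-count barcodes at 220, 156, 157 and 139 CPM. It was seen in 74 of 200 and 28 of 84 spleen members, and 1 female spleen member gave 117 of 356 UMIs. Members with 0 or 1 ASC genes stood at 2719 and 383 CPM in female and male spleen, and those with 2 to 4 at 114 and 165 CPM. Apoe kept an adjusted p under 0.05 among members with 0 or 1 ASC genes (6.90). Ube2c, a ubiquitin-conjugating enzyme of mitosis, stood at 126 and 71.4 CPM against 7.62 and 31.2 (2.33 ± 0.54, adjusted p = 0.0475). Low-count barcodes held 155, 108, 103 and 124 CPM of it in the same order, above members in all 4 libraries, and in members with 0 or 1 ASC genes it was at 33.4, 24.0, 19.9 and 0 CPM. With 1 library left out and the sex term dropped, some calls ended: Ube2c without either female library (1.79 and 1.75), Il7r without male spleen, S100a9 and Sox4 without either spleen library, Akap12 without male bone marrow (-4.49), and Myb without any one of the 4 (-3.38 to -2.83). Without male spleen 82 genes were called in all. Apoe, Nfkbid and Fam129c stayed under 0.05 in each of those fits that tested them.

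**Figure D5:**
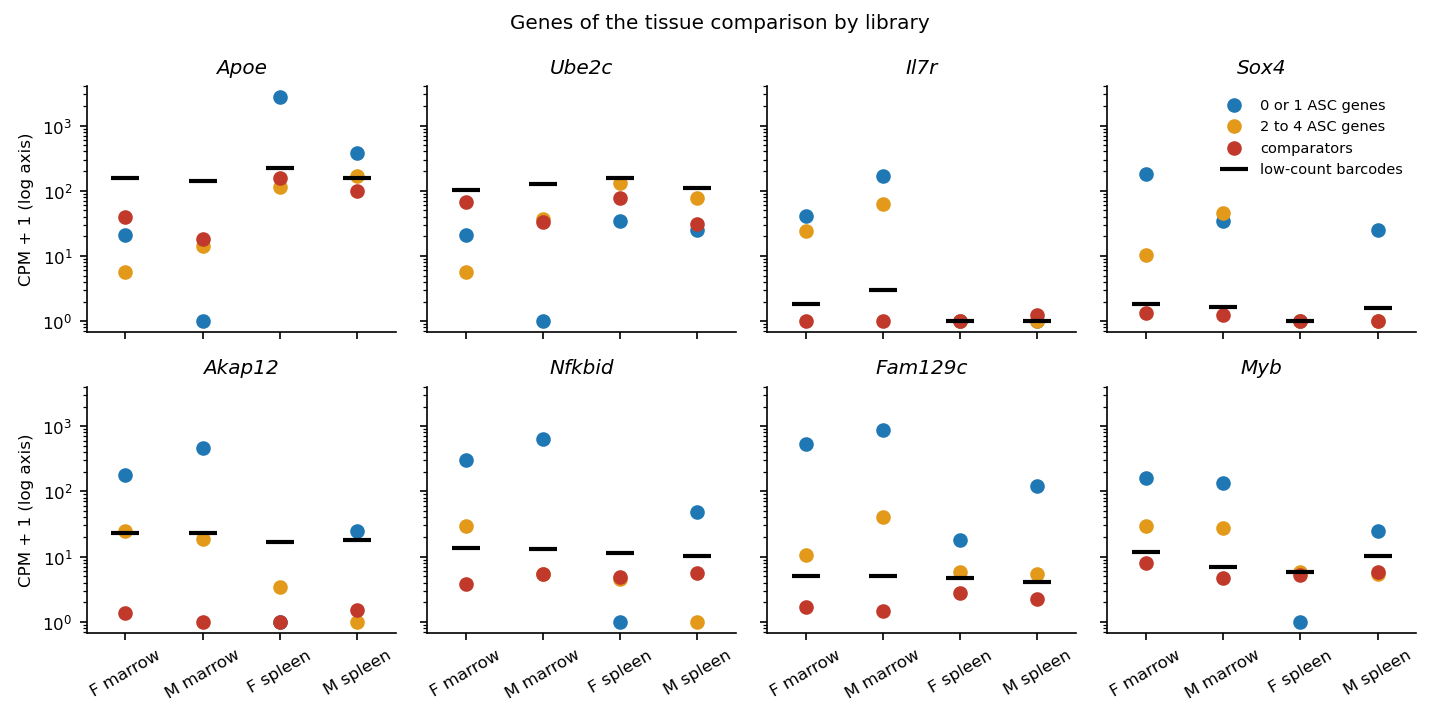
CPM + 1 (log axis) of 8 genes of the organ comparison in members with 0 or 1 ASC genes (blue), members with 2 to 4 (orange), comparators (red) and low-count barcodes (black bars), by library (F, female; M, male). Il7r, Sox4, Akap12, Nfkbid, Fam129c and Myb are above comparators in bone marrow members, and Apoe is highest in female spleen members with 0 or 1 ASC genes.

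The class difference itself was compared between organs as an interaction, and 14 of 9982 genes passed edgeR's quasi-likelihood test with adjustment (0.14%), 1 with a larger (0.01%) and 13 with a smaller difference in spleen (0.13%). Atp1b1, a subunit of the sodium pump, stood at 99.0 CPM in female and 258 CPM in male bone marrow members against 37.4 and 22.0 in comparators, and at 95.2 and 46.9 in spleen members against 99.6 and 54.6 (-2.68 ± 0.38, adjusted p = 0.00179). Fam129c (-5.39 ± 0.91, adjusted p = 0.00805) and Nfkbid (-4.54 ± 0.71, adjusted p = 0.00449) were also above comparators mainly in bone marrow. Lag3, an inhibitory receptor found on some ASC, was the gene with a larger spleen value: members stood below comparators in bone marrow, at 22.8 and 31.2 against 108 and 147 CPM, and less so in spleen, at 47.9 and 63.2 against 67.0 and 91.2 (1.77 ± 0.37, adjusted p = 0.0447). Without female bone marrow 5 genes were called, and of the 4 named here Atp1b1 alone kept its call, which it lost without male bone marrow (-1.44). Fam129c also lost it without female spleen (-4.22), and Lag3 without any one of the 4 libraries (1.67 to 1.85).

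Between sexes, 4 of 5154 genes (0.0776%) were called in members. Xist stood at 1090 and 691 CPM in female bone marrow and spleen and at 0 in both male libraries, at least 185-fold lower in males. The Y-linked genes Eif2s3y (0 in females, 54.6 and 71.4 CPM in males, at least 44.1-fold higher) and Ddx3y (6.55 ± 0.76, adjusted p = 1.47e-05) had the opposite order. Fos, an immediate early gene, stood at 198 and 241 CPM in female bone marrow and spleen and at 27.3 and 67.3 in male ones (-2.36 ± 0.39, adjusted p = 0.0036). Fos did not pass without male bone marrow (-1.99), nor Ddx3y without male spleen. In all, 22 genes were called without female bone marrow, 12 without female spleen and 9 without male spleen. Comparators had the same order for Fos, at 575, 384, 122 and 128 CPM in female bone marrow, female spleen, male bone marrow and male spleen. None of the 35 B cell genes and none of the 18 ASC genes tested differed by sex at an adjusted p under 0.05, where 302 of the 5154 genes had an unadjusted p under 0.05 and DESeq2 called 2.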

How the data were processed

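Values are UMI counts per gene and barcode in the 6 deposited gene expression matrices, made by the authors with Cell Ranger 6.0.2 per the submitters' processing notes (the unfiltered matrices carry Cell Ranger version 4 per the file headers); the genome build is not given in the sources used here. The deposited VDJ contig tables gave chains, their UMI counts and CDR3 bases. The members and the gene lists were chosen with earlier results of these data known. Filters, the rule and comparators are as stated in the report. UMIs were summed per library and class, without the 392 immunoglobulin genes and, in tests, the 6 rule genes. Libraries with at least 10 members by the rule of 3 genes entered tests, which left 4; the same 4 were used with at least 4 rule genes, where male bone marrow held 9 cells. edgeR 4.0.16 (R 4.3.3, TMM, filterByExpr, quasi-likelihood test, Benjamini-Hochberg adjustment) was the main tool and DESeq2 1.42.0 an alternative. The class and organ fits were tested on simulated data, where 96.5 and 69.0% of the changed genes were recovered, with 9 and 4 false calls. Changed genes were drawn above a floor of mean CPM, all with the same size of change. The simulated counts held no library effect and no value set by a single cell, so these numbers do not cover such cases. The sex and interaction fits were not tested in that way. Library was a block in the class comparison, and sex and organ were additive terms within members. Sums held 3 and 1 residual degrees of freedom. CPM is per 1000000 UMIs outside immunoglobulin genes and, for genes of the fits, also outside the 6 rule genes.

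Named genes were those at adjusted p under 0.05 with a mean of at least 20 CPM in the higher group: the 15 with the largest change each way and the same direction in every library for the class comparison, and up to 8 each way elsewhere, plus genes of the lists; a few genes that meet this rule or stand in a list are not reported here. Intervals are exact Clopper-Pearson at 95%. A group at 0 was set to a floor of 3 UMIs for a bound. Total UMIs per deposited filtered matrix were 1367972 to 85749785. Alternatives changed the number of rule genes, depth, scaling, filter, comparators, ASC genes, shared barcodes and libraries; the last set on shared barcodes, the subset with 2 to 4 ASC genes and the VDJ join was chosen after seeing the data. Thymus comparisons were not run. Python 3.11.15 was used for the rest.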

Additional observations from a re-analysis of the deposited data

Results flagged for a closer look

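The difference between members and comparators itself differed between spleen and bone marrow in 14 genes by the interaction test (edgeR's quasi-likelihood test with Benjamini-Hochberg adjustment). The 9 that the naming rule took are given here, each as the spleen difference minus the bone marrow difference in log2. Lag3 was the 1 with a positive value, 1.77. The others were Marcks at -6.05, Fam129c at -5.39, Nfkbid at -4.54, Nrm at -2.85, Cecr2 at -2.72, Atp1b1 at -2.68, Tifa at -2.60 and Fam53b at -2.44. In bone marrow members Marcks stood at 38.1 and 23.4 CPM, Nrm at 72.3 and 74.2, Cecr2 at 49.5 and 54.6, Tifa at 72.3 and 105 and Fam53b at 49.5 and 125, females first. In spleen members they stood at 2.85 and 6.12, 18.8 and 16.3, 7.41 and 14.3, 10.8 and 14.3, and 7.41 and 22.4 CPM. The counts behind them were small: Marcks rested on 10 and 6 UMIs in bone marrow members. Calls ended when a library was left out: for Marcks without any one of the 4 (-8.71 to -5.02), for Cecr2 (-3.16 to -2.27) and Fam53b (-2.50 to -2.37) without any one but female spleen, for Tifa without female or male bone marrow (-2.89 and -2.18) and for Nrm without female bone marrow (-2.89). Among members with 0 or 1 ASC genes, Fam129c, Nfkbid and Atp1b1 stayed under an adjusted p of 0.05 and the other 6 did not, and DESeq2 gave the same 3.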

How the results depend on the processing

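Members numbered 370. They numbered 1904 with at least 2 of the 6 genes, 68 with at least 4 and 21 with each cell thinned to 500 UMIs. Genes called between members and comparators numbered 1226. They numbered 806 with DESeq2 (627 higher and 179 lower), 600 with at least 4 rule genes, 164 without the library block, 435 with each cell thinned to 1000 UMIs, 2696 with comparators not held to the light-chain condition, and 600 to 924 when 1 library was left out. Spleen against bone marrow called 21 genes, against 7 with DESeq2, 12 with upper-quartile scaling, 39 without a filter on low counts, 63 with at least 4 rule genes, 12 in members with 0 or 1 ASC genes, and 15 to 82 with 1 library left out. The sexes gave 4, against 2 with DESeq2, 1 in members with 0 or 1 ASC genes and 4 to 22 with 1 library left out. Leaving out a library in these last 2 comparisons also dropped the other term. The interaction called 14, against 3 with DESeq2, 48 without the filter, 30 in members with 0 or 1 ASC genes, 28 without shared barcodes, and 5 to 19 with 1 library left out. The cause of these shifts was not tested. VDJ contigs were on 0% of members by label, 38.6% with the library sharing most barcodes and 74.9% there with all productive contigs.

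Among the genes named for the class comparison, the direction turned in 9 cases, and with no named gene in the other 3 comparisons. Ly6c2 was at -0.64 with at least 4 rule genes and -1.74 in members with 0 or 1 ASC genes. In those members Ostc was at -1.28, Rrm2 at -0.34, Mki67 at -1.34 and Swap70 at 0.14, and Mki67 was at -0.086 with at least 4 rule genes. DESeq2 put S100a8 at 0.41 and Ngp at 0.45. Direction and call held in 763 of the other settings for class genes and the call alone was lost in 117. For the other 3 comparisons the same 2 numbers were 56 and 23, 28 and 5, and 52 and 38, for organ, sex and interaction.

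The class comparison pairs both classes within a library through the block. The organ comparison holds sex as an additive term, and no pairing by mouse is known from the labels. With 1 library per combination and down to 40 members in a library, low genes could not be tested within members, and 1 cell can set a library's value.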
